A study of Arabidopsis thaliana with 24 samples.

Results

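The difference between agb1 and wild-type (WT) seedlings in their transcript response to 3 h of NAE 18:3 was described across all expressed gene loci of Arabidopsis thaliana. Each locus has 1 value, the log2 effect of NAE 18:3 against DMSO in agb1 minus the same effect in WT. It draws on 12 of the 24 libraries of the study, and 20672 of the 32833 loci in the count table had enough counts to be tested. These libraries were picked by their labels and not by a measured value, though the comparison was chosen with earlier results of these data known.

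The difference takes 4 groups of 3 libraries: agb1 seedlings given NAE 18:3 for 3 h, agb1 seedlings given DMSO for 3 h, WT seedlings given NAE 18:3 for 3 h and WT seedlings given DMSO for 3 h. All were whole seedlings of the Col-0 background, 4 days old, raised in liquid medium with 1% sucrose at 21 °C. NAE 18:3 was given at 40 µM, and the solvent control was 0.2% DMSO. Treatment was given in dishes of 515 seedlings, so each library comes from pooled seedlings. Which agb1 allele was used is not named in the labels. They also do not say whether the mutant stock was 1 line or whether the 3 replicates of a group were separate cultures. The p-values measure the spread between these samples, which may be technical. The other 12 libraries are the same 4 groups at 1 h and serve here only to compare the times.

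NAE 18:3 (N-linolenoylethanolamine) is an N-acylethanolamine, a fatty acid amide that plants hydrolyse with fatty acid amide hydrolase or oxidise through the lipoxygenase pathway, and that slows the growth and greening of young seedlings. AGB1 encodes the beta subunit of the plant heterotrimeric G protein, which pairs with a gamma subunit and carries signals from the membrane together with the alpha subunit GPA1. In seedlings this complex is known for roles in growth, defence and stress responses. A difference between genotypes in the effect of a lipid treatment asks which transcripts respond otherwise when the beta subunit gene is mutated, a question set by the study's design.

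AGB1 (AT4G34460) itself was read in every library. It had 32.5, 32.0 and 35.4 CPM in agb1 under NAE and 25.0, 22.1 and 30.9 CPM in agb1 under DMSO, against 93.8, 112 and 105 CPM in WT under NAE and 47.3, 47.9 and 48.3 CPM in WT under DMSO. All 6 agb1 libraries lay below all 6 WT libraries. Transcript was present in agb1, and a transcript level does not show whether beta subunit protein was made. CPM is the usual unit of a locus's counts relative to the size of its library, here scaled by the trimmed mean of M-values (TMM). It allows comparison of 1 locus between libraries but not of levels between loci, since it is not per length.

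Depth differed with genotype. The agb1 libraries held 35982747 to 39973593 counts under NAE and 41079187 to 51894994 under DMSO, and the WT libraries held 19954891 to 25799623 under NAE and 25002805 to 25674264 under DMSO. Depth and genotype cannot be told apart in the 3 h libraries, and counts thinned to equal depth gave 645 calls in place of 613. The agb1 DMSO libraries were the least alike, with a median SD between replicates of 0.161 on the log2 scale, against 0.0898 in agb1 under NAE, 0.144 in WT under NAE and 0.128 in WT under DMSO. Ribosomal RNA took 0.163 to 0.294% of the counts in agb1 under NAE, against at most 0.129% in the other groups. Of the lists of cell type markers, those of mesophyll were abundant, and those of seed storage and pollen summed to at most 1.79 CPM in any library. None of the listed marker loci was at 0 in all 12 libraries.

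In the comparison across all loci, 613 of 20672 differed between agb1 and WT in the NAE effect at an adjusted p under 0.05 (edgeR quasi-likelihood F test with Benjamini-Hochberg adjustment), which is 2.97% of those tested. The difference was positive for 272 loci (1.32%) and negative for 341 (1.65%). Which direction held more calls turned with the scaling of libraries, with 318 positive and 279 negative for library totals alone, 295 and 279 for relative log expression (RLE) factors and 306 and 295 with an exon length offset. Of the 613, 340 differed at least 2-fold (1.64%), 170 in each direction. At an unadjusted p under 0.05 there were 3969 loci, and the median SE of the difference was 0.231. A positive difference means that the NAE effect lay higher in agb1 than in WT, whether it was a smaller fall or a larger rise, and a negative difference means that it lay lower.

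By their medians, the called loci had a smaller NAE effect in agb1 than in WT. Over the 341 loci with a negative difference, the median NAE effect was 0.37 in agb1 and 1.38 in WT. Over the 272 loci with a positive difference, it was -0.55 in agb1 and -1.73 in WT. The genotypes also stood apart by their medians within each treatment. For the 341, the median of agb1 against WT was -0.51 under NAE and 0.46 under DMSO, and for the 272 it was 0.55 under NAE and -0.53 under DMSO. These were of similar size in NAE and in DMSO seedlings and of opposite sign. All of these medians restate the called difference through its parts, which share libraries with it, and carry no test. Over all 20672 loci the median difference was -0.02, with medians of -0.03 for the NAE effect in agb1 and -0.00 in WT.

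**Figure D1:**
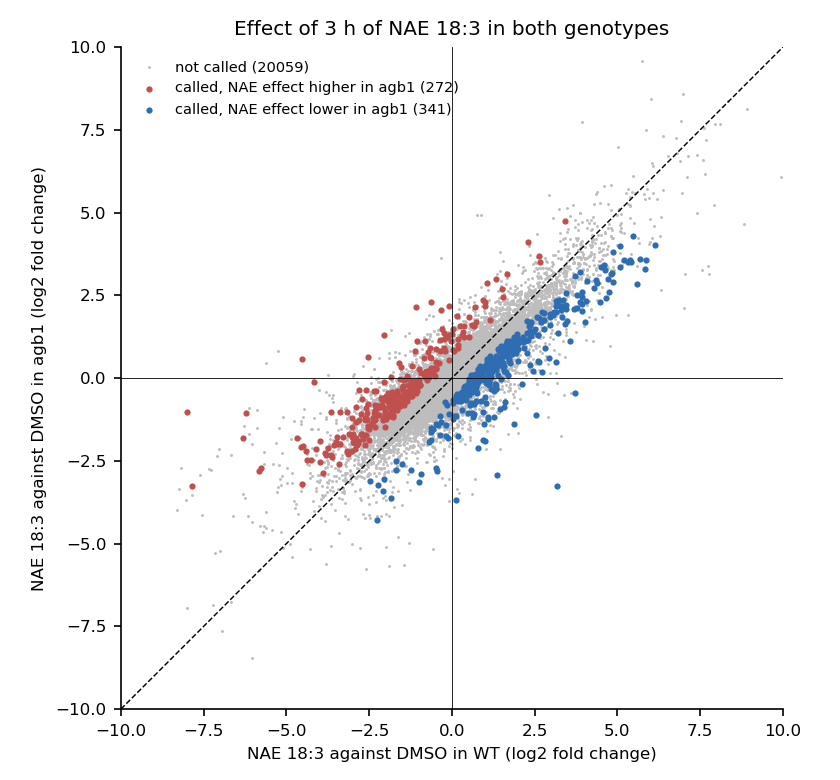
Each point is 1 of the 20672 tested loci, placed by the log2 fold change of NAE 18:3 against DMSO at 3 h in agb1 (vertical) and in WT (horizontal). Points on the dashed line responded alike in both genotypes. The 272 loci with a called higher effect in agb1 (red) lie above it, mostly at negative values, and the 341 with a called lower effect (blue) lie below it, mostly at positive values.

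Alone, the NAE effect was called for 10442 loci in agb1 (50.5%) and for 12094 in WT (58.5%). In agb1 it was higher for 5073 (24.5%) and lower for 5369 (26%), and in WT it was higher for 6079 (29.4%) and lower for 6015 (29.1%). Genotype under NAE was called for 4743 loci (22.9%), with agb1 higher for 1910 (9.24%) and lower for 2833 (13.7%). Under DMSO it was called for 3921 (19%), with agb1 higher for 1621 (7.84%) and lower for 2300 (11.1%). These splits depend on the scaling of libraries. With library totals alone the NAE effect was called higher for 31.5% of the called loci in agb1 and 34.1% in WT, and genotype was called higher in agb1 for 67.5% under NAE and 63.5% under DMSO. The medians of all loci then stood at -0.24 for NAE in agb1, -0.26 for NAE in WT, 0.14 for genotype under NAE and 0.13 for genotype under DMSO. The median of the difference between the NAE effects was then 0.02.

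Heat shock genes, whose products keep other proteins folded under stress, had the lowest median difference of the 26 gene lists. Of 22 listed loci of the heat shock response, all tested, 11 had a called lower NAE effect in agb1 and none a higher one, against 1.65% and 1.32% of all loci. The list's median difference was -1.21, with median NAE effects of 3.00 in agb1 and 4.05 in WT. The median of agb1 against WT was -0.44 under NAE and 0.80 under DMSO.

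HSP90.1 (AT5G52640) encodes the heat-inducible cytosolic HSP90 chaperone. It had 3378, 3016 and 3491 CPM in agb1 under NAE and 595, 756 and 612 CPM in agb1 under DMSO, against 4717, 5108 and 4313 CPM in WT under NAE and 299, 264 and 292 CPM in WT under DMSO. The 4 groups did not overlap, and the order was WT under NAE, agb1 under NAE, agb1 under DMSO and WT under DMSO. HSP90.1 rose in both genotypes, by 2.33 in agb1 (SE 0.13) and by 4.05 in WT (SE 0.14), and the difference was -1.72 (SE 0.18, adjusted p = 0.00061). ROF2 (AT5G48570), a heat-inducible peptidyl-prolyl isomerase of the FKBP family, had 599, 524 and 630.3 CPM in agb1 under NAE and 158, 219 and 164 CPM in agb1 under DMSO, against 1082, 1086 and 1049 CPM in WT under NAE and 78.6, 66.1 and 55.2 CPM in WT under DMSO. Its 4 groups kept the same order without overlap, and the difference was -2.31 (SE 0.21, adjusted p = 0.000243).

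HSP17.6A (AT5G12030), a small cytosolic heat shock protein, had 380.2, 335 and 332 CPM in agb1 under NAE and 32.6, 41.8 and 32.2 CPM in agb1 under DMSO, against 474, 651 and 609.9 CPM in WT under NAE and 16.3, 9.20 and 4.76 CPM in WT under DMSO. Here too the agb1 libraries were above WT under DMSO and below WT under NAE, and the difference was -2.54 (SE 0.42, adjusted p = 0.00853). HSP70 (AT3G12580), a cytosolic HSP70 chaperone, showed another balance. It had 3366, 2991 and 3215 CPM in agb1 under NAE and 716, 878 and 656 CPM in agb1 under DMSO, against 3770.1, 3890.2 and 3242 CPM in WT under NAE and 285, 283 and 284 CPM in WT under DMSO. The genotypes were close under NAE, where 1 agb1 library exceeded the lowest of WT, and stood apart under DMSO, with agb1 against WT at -0.19 under NAE and 1.4 under DMSO. Its difference was -1.59 (SE 0.18, adjusted p = 0.000839). HSFA2 (AT2G26150), a transcription factor of the acquired heat response, had 141, 131 and 140.0 CPM in agb1 under NAE, against 177, 170.4 and 178 CPM in WT under NAE. It had 14.98, 14.9 and 23.8 CPM in agb1 under DMSO, against 11.5, 8.71 and 10.9 CPM in WT under DMSO. The difference was -1.14 (SE 0.23), adjusted p = 0.0203.

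The other called members were the disaggregase gene HSP101 at -1.39, the small heat shock genes HSP17.6II at -2.08, HSP23.6-MITO at -2.11 and AT5G37670 at -1.95, the coactivator gene MBF1C at -1.90 and the co-chaperone gene BAG6 at -1.06. The 11 members that missed the threshold included the factor genes HSFA3 at 0.38 (adjusted p = 0.35), HSFB2B at 0.09 (adjusted p = 0.879) and DREB2A at 0.08 (adjusted p = 0.936), the 3 list members with a positive value. With 1 library left out at a time the count of called members stayed between 9 and 12.

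Loci annotated as chaperones, groups chosen after the values were seen, held calls in the same direction. Of 31 tested loci annotated as HSP20-like chaperones, 8 had a lower effect in agb1 and none a higher one, against 1.65% and 1.32% of all loci, and 7 of the 8 are outside the heat shock list. Of these, 3 stood among the largest differences or smallest p-values. AT2G29500 had 943, 857 and 989 CPM in agb1 under NAE and 70.9, 85.8 and 79.4 CPM in agb1 under DMSO, against 1232, 1304 and 1559 CPM in WT under NAE and 24.1, 21.6 and 24.1 CPM in WT under DMSO. AT5G51440 had 1029, 989 and 1040.1 CPM in agb1 under NAE and 97.5, 102 and 96.8 CPM in agb1 under DMSO, against 1375, 1357 and 1520.2 CPM in WT under NAE and 44.3, 41.0 and 41.9 CPM in WT under DMSO. AT1G07400 had 432, 395 and 403 CPM in agb1 under NAE and 56.1, 63.6 and 50.5 CPM in agb1 under DMSO, against 593, 658 and 786 CPM in WT under NAE and 19.1, 13.6 and 9.29 CPM in WT under DMSO. In all 3 the agb1 libraries lay below WT under NAE and above WT under DMSO, with no overlap. Their differences were -2.31 (SE 0.17, adjusted p = 6.78e-05) for AT2G29500, -1.70 (SE 0.13, adjusted p = 7.3e-05) for AT5G51440 and -2.74 (SE 0.28, adjusted p = 0.00061) for AT1G07400. Among 112 loci annotated as DnaJ-type co-chaperones, which deliver clients to HSP70, 7 had a lower effect in agb1 and none a higher one. The 7 became 1 without agb1 NAE replicate 1, agb1 NAE replicate 2 or WT DMSO replicate 2, and 2 among the 72 of these loci with no overlap on the opposite strand. The HSP20-like count stayed between 7 and 9 with 1 library left out.

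GolS1 (AT2G47180) encodes galactinol synthase, the first enzyme of raffinose synthesis, and is known as a target of heat shock factors. It had 190.4, 185 and 183.3 CPM in agb1 under NAE and 34.2, 26.5 and 31.4 CPM in agb1 under DMSO, against 388, 407 and 385 CPM in WT under NAE and 17.0, 11.98 and 15.3 CPM in WT under DMSO. The libraries of a group were close together and the 4 groups did not overlap. GolS1 rose by 2.60 in agb1 and by 4.74 in WT, and the difference was -2.14 (SE 0.18, adjusted p = 0.000101). The locus overlaps another on the opposite strand. The strand setting of the authors' counting is not given in the sources used here, so reads of the neighbour may be among its counts.

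**Figure D2:**
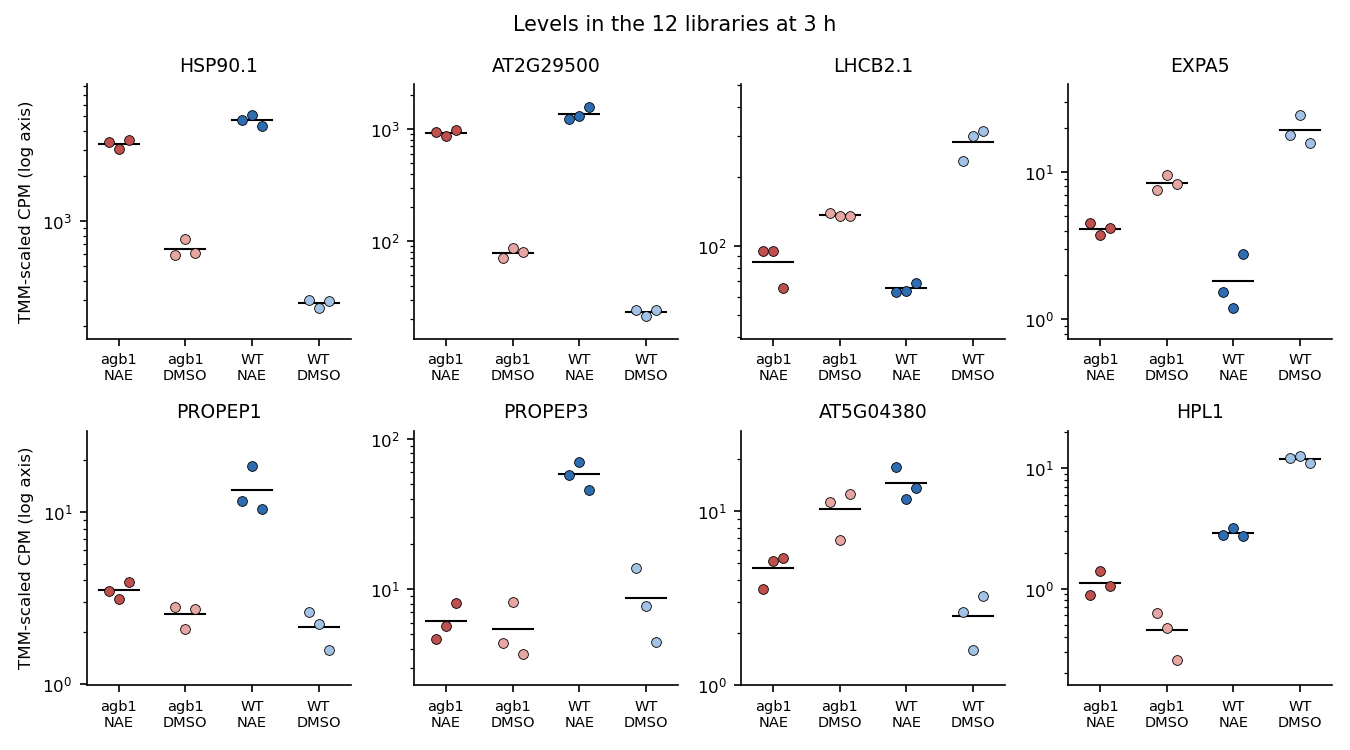
TMM-scaled CPM of 8 loci in the 12 libraries at 3 h on log axes, 1 panel per locus. Points are libraries and bars are means of 3, in the order agb1 under NAE, agb1 under DMSO, WT under NAE and WT under DMSO. HSP90.1 and AT2G29500 are highest in WT under NAE and lowest in WT under DMSO, LHCB2.1 and EXPA5 are highest in WT under DMSO, and PROPEP1 and PROPEP3 are high only in WT under NAE.

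The stress lists next to heat shock held at most 2 calls each. Of all loci 1.65% were called lower and 1.32% higher. Of 12 loci of the endoplasmic reticulum stress response, 2 had a lower effect in agb1 and none a higher one. The lower calls were 1 to 3 with 1 library left out and 2 to 5 in the other settings. All 12 values of this list were negative, and its median was -0.58. TIN1 (AT5G64510), a gene known for its induction by tunicamycin, had 40.8, 40.6 and 41.5 CPM in agb1 under NAE and 7.85, 13.9 and 12.1 CPM in agb1 under DMSO, against 36.2, 36.5 and 37.0 CPM in WT under NAE and 3.97, 3.46 and 3.599 CPM in WT under DMSO. The genotypes were close under NAE, with agb1 slightly higher in each library, and stood apart under DMSO, and the difference was -1.46 (SE 0.23, adjusted p = 0.00622). BZIP60 (AT1G42990), a transcription factor of the unfolded protein response, had a difference of -1.02 (SE 0.19, adjusted p = 0.0134). Among 20 oxidative stress loci only CAT3 (AT1G20620), a catalase gene, was called, with a higher effect in agb1 of 0.91 (SE 0.21, adjusted p = 0.0322). That call was lost without agb1 NAE replicate 1, among other libraries. None of 22 detoxification loci was called, though the list's median was -0.54, with NAE effects of 2.26 in agb1 and 2.92 in WT. Without agb1 DMSO replicate 2, 7 detoxification loci were called lower.

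Genes of the light-harvesting antenna differed in the positive direction. Of 16 tested loci, 7 had a called higher NAE effect in agb1 and none a lower one, against 1.32% and 1.65% of all loci, and all 16 values were positive, with a median of 0.67. The median NAE effect was 0.22 in agb1 and -0.28 in WT. The antenna proteins bind chlorophyll and pass light energy to the photosystems. In the whole list the median of agb1 against WT was -0.15 under NAE and -0.78 under DMSO.

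LHCB2.1 (AT2G05100) encodes a major antenna protein of photosystem II. It had 95.3, 94.9 and 65.6 CPM in agb1 under NAE and 138, 135 and 134 CPM in agb1 under DMSO, against 63.3, 63.9 and 68.6 CPM in WT under NAE and 233, 299 and 314 CPM in WT under DMSO. The genotypes stood apart under DMSO, and under NAE the lowest agb1 library lay within the WT range. On the log2 scale the NAE effect was -0.67 in agb1 (adjusted p = 0.0015) and -2.11 in WT (adjusted p = 5.71e-08), and the difference was 1.44 (SE 0.20, adjusted p = 0.00387). LHCB2.3 (AT3G27690) of the same family had 7.53, 9.51 and 4.84 CPM in agb1 under NAE and 9.15, 10.6 and 8.38 CPM in agb1 under DMSO, against 5.10, 4.03 and 4.68 CPM in WT under NAE and 28.0, 34.5 and 34.6 CPM in WT under DMSO. The WT libraries under DMSO were far above the other 9, and the genotypes overlapped under NAE. It fell in WT, with an effect of -2.81 (SE 0.22), and its effect in agb1 was -0.36 with an adjusted p of 0.143. The difference was 2.45 (SE 0.29, adjusted p = 0.00135), and this locus also overlaps another on the opposite strand. LHCB2.2 (AT2G05070) had a difference of 1.34 (SE 0.20, adjusted p = 0.00492).

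LHCB1.1 (AT1G29920) had 519, 587 and 404 CPM in agb1 under NAE and 189, 209.7 and 186 CPM in agb1 under DMSO, against 271, 269 and 383 CPM in WT under NAE and 313, 383 and 398 CPM in WT under DMSO. The agb1 libraries under NAE were the highest and those under DMSO the lowest. It rose in agb1, by 1.37, while its effect in WT was -0.24 with an adjusted p of 0.218, and the difference was 1.61 (SE 0.23, adjusted p = 0.00429). The neighbouring copies LHCB1.2 and LHCB1.3 were not called, at 0.36 (adjusted p = 0.342) and 0.27 (adjusted p = 0.473). The LHCB1 copies and the LHCB2 copies are near-identical, and the authors' counting could have split shared reads between them, so their single values are uncertain. The remaining calls were LHCB3 at 0.85, LHCB4.2 at 0.82 and LHCB6 at 0.83. The called members were 4 in place of 7 without agb1 NAE replicate 1, agb1 NAE replicate 2 or WT DMSO replicate 2, and 7 without agb1 DMSO replicate 2. With loci that overlap another on the opposite strand left out, 10 antenna loci were tested and 3 were called.

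Beyond the antenna, few genes of the chloroplast lists were called, beside 2.97% of all loci. GLK1 (AT2G20570), a transcription factor that activates antenna and chlorophyll synthesis genes, had 32.5, 30.4 and 28.0 CPM in agb1 under NAE and 48.6, 44.5 and 39.6 CPM in agb1 under DMSO, against 49.4, 53.7 and 54.0 CPM in WT under NAE and 148, 169 and 156 CPM in WT under DMSO. The 4 groups did not overlap, with agb1 under NAE lowest and WT under DMSO highest, and the difference was 1.05 (SE 0.14, adjusted p = 0.00337). GLK1 was the 1 called member of 19 tested in the list of greening regulators. That list's median was -0.03, with 9 positive and 10 negative values. In the chlorophyll synthesis list PORC (AT1G03630) and PORB (AT4G27440), both protochlorophyllide oxidoreductase genes, had higher effects in agb1, 0.73 (SE 0.16) and 0.86 (SE 0.21), out of 15 tested, with a list median of 0.33. Both calls were lost without agb1 NAE replicate 1, WT DMSO replicate 2, WT NAE replicate 1 or WT NAE replicate 2, and none of the 8 listed loci with no overlap on the opposite strand was called when only such loci were tested. In the Calvin cycle list 1 of 18 was called, the aldolase gene FBA1 (AT2G21330) at 1.05 (SE 0.22), a call lost without agb1 NAE replicate 1. The photosystem and electron transport list had no call among 28 loci and a median of 0.25. With DESeq2 it had 3 higher calls, and with 24 libraries in the fit 4. Outside the list, AT1G49975, annotated as photosystem I reaction center subunit N, was called at 1.79 (SE 0.26, adjusted p = 0.00444). It was named after its value was seen. The plastid ribosome list had no call among 26 and a median of 0.06. Mesophyll marker loci, 3 of 5 of which are antenna genes, summed to 19258 to 21404 CPM of all counts in agb1 under NAE and 18067 to 19834 in agb1 under DMSO, against 22979 to 27319 in WT under NAE and 25151 to 30899 in WT under DMSO. Their part in the antenna result was not tested. In whole seedlings fewer cells of a type and less RNA per cell cannot be told apart.

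Some loci of the cell wall and cuticle had called positive differences, though not all that were called did. XTH15 (AT4G14130), a xyloglucan endotransglucosylase/hydrolase gene named after its values were seen, had a lower effect in agb1, -1.84 (SE 0.30). EXPA5 (AT3G29030), an expansin that loosens growing cell walls, had 4.53, 3.75 and 4.15 CPM in agb1 under NAE and 7.57, 9.53 and 8.36 CPM in agb1 under DMSO, against 1.52, 1.19 and 2.79 CPM in WT under NAE and 17.9, 24.6 and 15.9 CPM in WT under DMSO. It fell in both genotypes, with effects of -1.04 in agb1 and -3.37 in WT, and the difference was 2.34 (SE 0.35, adjusted p = 0.00482). The agb1 libraries were above WT under NAE and below WT under DMSO, with no overlap. It was the 1 called member of 17 in the cell wall growth list, against 2.97% of all loci called. The list's median was 0.18. AT1G67750, annotated as a pectate lyase, had 2.48, 2.98 and 2.47 CPM in agb1 under NAE and 6.20, 6.62 and 3.38 CPM in agb1 under DMSO, against 1.29, 0.77 and 0.902 CPM in WT under NAE and 11.6, 15.9 and 10.0 CPM in WT under DMSO. Its agb1 libraries too lay above WT under NAE and below WT under DMSO. Its difference was 2.62 (SE 0.40, adjusted p = 0.00522). AT1G60590, annotated as a pectin lyase-like protein, had the largest difference among called loci averaging at least 5 CPM, 4.57 (SE 1.04, adjusted p = 0.035), but rested on few reads. It had 0.462, 0.528 and 0.335 CPM in agb1 under NAE and 7.80, 2.17 and 3.01 CPM in agb1 under DMSO, against 0.333, 0 and 0.0429 CPM in WT under NAE and 25.2, 25.9 and 41.8 CPM in WT under DMSO. The 6 NAE libraries were all under 1 CPM, and the call was lost in 9 of 23 alternatives, among them those without agb1 NAE replicate 1, 2 or 3.

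By annotated product, groups chosen after the values were seen, 8 of 117 pectin-modifying enzymes, 3 of 20 expansins, 9 of 68 GDSL lipases and 7 of 56 lipid-transfer proteins had a higher effect in agb1, and none of these 4 groups held a lower one. Of all loci 1.32% were called higher and 1.65% lower. Without agb1 NAE replicate 1 the counts were 4 pectin-modifying enzymes, 3 expansins, 4 GDSL lipases and 3 lipid-transfer proteins. Without agb1 DMSO replicate 2 they were 12, 5, 14 and 8 in the same order of groups, and lower effects were then called for 3 pectin-modifying enzymes, 1 expansin and 3 lipid-transfer proteins. The medians of the groups were 0.15, 0.24, 0.19 and 0.05. AT4G28780, a GDSL lipase, had 20.8, 16.7 and 15.6 CPM in agb1 under NAE and 23.8, 30.9 and 28.3 CPM in agb1 under DMSO, against 5.29, 6.34 and 8.54 CPM in WT under NAE and 38.6, 50.9 and 42.9 CPM in WT under DMSO. The WT libraries under NAE were the lowest and the WT libraries under DMSO the highest, and the difference was 2.06 (SE 0.25, adjusted p = 0.00135). AT2G10940, annotated as a lipid-transfer protein of the seed storage albumin superfamily, had 141, 199 and 87.8 CPM in agb1 under NAE and 507, 609 and 372 CPM in agb1 under DMSO, against 59.0, 70.3 and 46.0 CPM in WT under NAE and 1318, 1782 and 1435 CPM in WT under DMSO. Without overlap, agb1 was above WT under NAE and below WT under DMSO. It fell in both genotypes, by far more in WT, and the difference was 2.89 (SE 0.38, adjusted p = 0.00307). Cuticle genes named after their values were seen included LTL1 (AT3G04290), a GDSL lipase gene, at 2.07 (SE 0.33), BDG1 (AT1G64670), an epidermal hydrolase needed for the cuticle, at 1.24 (SE 0.22), HTH (AT1G72970), which keeps floral organs from fusing, at 1.53 (SE 0.24), and GPAT8 (AT4G00400), a cutin synthesis enzyme, at 1.04 (SE 0.20).

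The 4 epidermis markers summed to 300.0 to 427 CPM of all counts in agb1 under NAE and 722 to 1033 in agb1 under DMSO, against 166 to 233 in WT under NAE and 919 to 1016 in WT under DMSO. All 4 had a positive difference, and 1 was called, FDH (AT2G26250), an epidermal fatty acid elongase gene, at 0.65 (SE 0.16). That call was lost without agb1 NAE replicate 1, among other libraries, and with the replicate number as a block. Of 6 guard cell lineage markers 1 was called, TMM (AT1G80080), a receptor-like protein of stomatal patterning, at 1.37 (SE 0.23). Their sum was 70.7 to 73.8 CPM in agb1 under NAE and 93.6 to 109 in agb1 under DMSO, against 39.4 to 70.1 in WT under NAE and 99.8 to 122.5 in WT under DMSO. Among the 9 tested root markers 1 was called lower, the phosphate transporter gene PHT1;1 (AT5G43350) at -1.01 (SE 0.23), a call lost without agb1 DMSO replicate 1, among other libraries. The root markers summed to 89.0 to 104 CPM in agb1 under NAE and 239 to 267 in agb1 under DMSO, against 93.9 to 125 in WT under NAE and 182.5 to 215 in WT under DMSO. Over all loci 1.32% were called higher and 1.65% lower. The part of any cell type in the cell wall and cuticle result was not tested.

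Genes for danger peptides showed another pattern, in which the genotypes stood apart under NAE and overlapped under DMSO. PROPEP genes encode precursors of Pep peptides, which are perceived by the receptors PEPR1 and PEPR2 and amplify immune signalling. PROPEP1 (AT5G64900) had 3.49, 3.12 and 3.94 CPM in agb1 under NAE and 2.80, 2.08 and 2.73 CPM in agb1 under DMSO, against 11.6, 18.4 and 10.4 CPM in WT under NAE and 2.62, 2.24 and 1.59 CPM in WT under DMSO. The 3 WT libraries under NAE lay above all 9 others. It rose in WT, by 2.64 (SE 0.25), and its effect in agb1 was 0.47 with an adjusted p of 0.118. The difference was -2.17 (SE 0.35, adjusted p = 0.00622), and agb1 against WT was -1.93 under NAE (adjusted p = 0.000114) and 0.24 under DMSO (adjusted p = 0.554).

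PROPEP3 (AT5G64905) had 4.67, 5.73 and 8.04 CPM in agb1 under NAE and 4.37, 8.15 and 3.69 CPM in agb1 under DMSO, against 57.5, 70.2 and 45.6 CPM in WT under NAE and 13.9, 7.72 and 4.45 CPM in WT under DMSO. Again the WT libraries under NAE stood above all others, and the other 3 groups overlapped. The difference was -2.55 (SE 0.53, adjusted p = 0.0262), a call that was lost in 5 of 23 alternatives. PROPEP2 (AT5G64890) had 0.519, 0.819 and 1.03 CPM in agb1 under NAE and 0.63, 0.571 and 0.508 CPM in agb1 under DMSO, against 6.57, 7.82 and 7.08 CPM in WT under NAE and 1.13, 1.06 and 0.232 CPM in WT under DMSO. It too stood highest in WT under NAE. Its difference was -2.66 (SE 0.57, adjusted p = 0.0262). In the immune signalling list these 3 and CERK1 (AT3G21630), the chitin receptor kinase gene, at -0.77 (SE 0.18), had a lower effect in agb1, and SID2 (AT1G74710), the isochorismate synthase gene of salicylic acid synthesis, had a higher one at 1.07 (SE 0.25), out of 27 tested. Of all loci 1.65% were called lower and 1.32% higher. The immune list's median was -0.49 and 24 of 27 values were negative. The receptors PEPR1 and PEPR2 were not called, at -0.26 (adjusted p = 0.464) and -0.20 (adjusted p = 0.768). The count of lower members was 1 without agb1 NAE replicate 1 and 8 without agb1 DMSO replicate 2. The SID2 call was lost after thinning to equal depth and without agb1 NAE replicate 1, 2 or 3, among other libraries.

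Of 21 WRKY transcription factor genes, 2 had a lower effect in agb1 and none a higher one, against 1.65% and 1.32% of all loci, and the median was -0.46. The 2 became 1 without agb1 NAE replicate 1 and 6 without agb1 DMSO replicate 2. WRKY22 (AT4G01250), a factor of pattern-triggered immunity, had 174, 169.8 and 176 CPM in agb1 under NAE and 13.04, 24.4 and 19.9 CPM in agb1 under DMSO, against 151, 174 and 172 CPM in WT under NAE and 6.55, 4.94 and 5.80 CPM in WT under DMSO. The genotypes overlapped under NAE and stood apart under DMSO. The difference was -1.67 (SE 0.25, adjusted p = 0.00517). WRKY28 (AT4G18170) had a difference of -1.64 (SE 0.37), adjusted p = 0.0331. WRKY33 and WRKY40, well known stress-induced members, were not called, at -0.22 (adjusted p = 0.567) and -1.10 (adjusted p = 0.216).

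Genes of the G protein were among the called loci. GPA1 (AT2G26300), the alpha subunit, had 172, 171 and 189 CPM in agb1 under NAE and 116, 97.4 and 122 CPM in agb1 under DMSO, against 274, 275 and 256 CPM in WT under NAE and 100.5, 80.4 and 101 CPM in WT under DMSO. Under NAE agb1 was below WT in all libraries, and under DMSO the genotypes overlapped. It rose in both genotypes, by 0.66 in agb1 and by 1.52 in WT, and the difference was -0.85 (SE 0.16, adjusted p = 0.0158). This call was lost without agb1 NAE replicate 1, agb1 NAE replicate 2 or WT DMSO replicate 2. AGB1 rose by 0.36 in agb1 and by 1.11 in WT, a difference of -0.75 (SE 0.17, adjusted p = 0.0289), which is a value of the mutated locus and was lost in 8 of 23 alternatives, all of them leaving out 1 library. The gamma subunit genes AGG1, AGG2 and AGG3 were not called. Their differences were -0.61 (SE 0.19), -0.18 (SE 0.18) and 0.12 (SE 0.37), with adjusted p of 0.107, 0.625 and 0.894. RGS1 (AT3G26090), which speeds the return of GPA1 to its inactive state, was not called either, at -0.34 (SE 0.13), adjusted p = 0.164.

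NDL3 (AT2G19620) belongs to the N-MYC downregulated-like family, whose members bind AGB1 and act in auxin transport. It had 10.5, 11.6 and 10.97 CPM in agb1 under NAE and 5.83, 6.99 and 5.82 CPM in agb1 under DMSO, against 4.86, 4.68 and 4.55 CPM in WT under NAE and 6.26, 6.54 and 5.11 CPM in WT under DMSO. The agb1 libraries under NAE lay above all 9 others. NDL3 rose in agb1, by 0.83 (SE 0.14), and its effect in WT was -0.35 with an adjusted p of 0.06, giving a difference of 1.17 (SE 0.20, adjusted p = 0.0092). The locus overlaps another on the opposite strand. NDL1 and NDL2 were not called, at -0.29 (adjusted p = 0.254) and 0.69 (adjusted p = 0.241). In all, 3 of 12 listed G protein loci were called, 1 higher and 2 lower, against 1.32% and 1.65% of all loci. The list's median was -0.24. Neither of the lower calls held without agb1 NAE replicate 1.

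In 42 of the 613 called loci the NAE effect was itself called in both genotypes with opposite signs. Of these, 11 had a positive difference and 31 a negative one. The NAE effect alone was called for 50.5% of all tested loci in agb1 and for 58.5% in WT. How many of all tested loci had opposite called effects was not counted. Opposite effects give a difference by their nature, so the count is no test. HPL1 (AT4G15440) is annotated as a hydroperoxide lyase, a type of enzyme that cleaves fatty acid hydroperoxides to short aldehydes. Its transcript level does not show whether active enzyme was made in these seedlings. It had 0.894, 1.399 and 1.06 CPM in agb1 under NAE and 0.63, 0.471 and 0.254 CPM in agb1 under DMSO, against 2.81, 3.2 and 2.75 CPM in WT under NAE and 12.3, 12.8 and 11.03 CPM in WT under DMSO. HPL1 rose in agb1, by 1.31, and fell in WT, with an effect of -2.04, and the difference was 3.35 (SE 0.37, adjusted p = 0.000838). Every agb1 library lay below every WT library, and the gap was widest under DMSO, with agb1 against WT at -4.73. PPCK1 (AT1G08650), the kinase that phosphorylates phosphoenolpyruvate carboxylase, had 10.2, 9.66 and 10.9 CPM in agb1 under NAE and 5.61, 5.16 and 5.49 CPM in agb1 under DMSO, against 20.7, 14.1 and 21.3 CPM in WT under NAE and 27.8, 27.8 and 32.7 CPM in WT under DMSO. It rose in agb1 and fell in WT, and the difference was 1.57 (SE 0.21, adjusted p = 0.00238). This locus overlaps another on the opposite strand.

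AT5G04380, annotated as a methyltransferase, had the largest negative difference among called loci averaging at least 5 CPM. It had 3.58, 5.18 and 5.36 CPM in agb1 under NAE and 11.3, 6.84 and 12.6 CPM in agb1 under DMSO, against 18.0, 11.7 and 13.5 CPM in WT under NAE and 2.62, 1.597 and 3.25 CPM in WT under DMSO. It fell in agb1, by 1.12 on the log2 scale, and rose in WT, by 2.53, and the difference was -3.65 (SE 0.40, adjusted p = 0.000839). The agb1 libraries lay below WT under NAE and above WT under DMSO. AT5G62280, a protein of unknown function, had 8.22, 6.63 and 9.04 CPM in agb1 under NAE, against 21.9, 22.6 and 23.2 CPM in WT under NAE. Under DMSO it had 14.4, 9.75 and 15.74 CPM in agb1 and 8.19, 5.32 and 8.78 CPM in WT. Again agb1 was lower under NAE and higher under DMSO, and the difference was -2.34 (SE 0.29, adjusted p = 0.00164).

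The remaining loci with large differences each had a pattern of their own. AT3G28220, annotated as a TRAF-like protein, had 16.0, 16.6 and 14.4 CPM in agb1 under NAE and 4.04, 2.84 and 2.75 CPM in agb1 under DMSO, against 26.3, 29.4 and 18.8 CPM in WT under NAE and 62.7, 24.03 and 27.9 CPM in WT under DMSO. The agb1 libraries lay below WT within each treatment, by most under DMSO. It rose in agb1, by 2.29, and its effect in WT was -0.63 with an adjusted p of 0.0922, and the difference was 2.91 (SE 0.44, adjusted p = 0.00597). AT1G33500, annotated as tropomyosin, was read mainly in WT. It had 1.5, 1.43 and 1.57 CPM in agb1 under NAE and 0.935, 1.16 and 0.84 CPM in agb1 under DMSO, against 23.5, 34.2 and 30.0 CPM in WT under NAE and 4.91, 3.19 and 3.44 CPM in WT under DMSO. Every agb1 library lay below every WT library. The difference was -2.31 (SE 0.29, adjusted p = 0.00189). DR4 (AT1G73330), a gene known as drought-repressed, was higher in agb1 under both treatments. It had 52.8, 48.9 and 49.7 CPM in agb1 under NAE and 62.1, 53.7 and 61.8 CPM in agb1 under DMSO, against 7.67, 8.83 and 10.0 CPM in WT under NAE and 25.9, 26.3 and 22.2 CPM in WT under DMSO. DR4 fell in WT, with an effect of -1.49, its effect in agb1 was -0.23 with an adjusted p of 0.0907, and the difference was 1.26 (SE 0.16, adjusted p = 0.00189).

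CYP710A2 (AT2G34490), a sterol desaturase gene, had 3.98, 4.86 and 4.02 CPM in agb1 under NAE and 20.5, 21.6 and 12.8 CPM in agb1 under DMSO, against 2.14, 2.07 and 0.343 CPM in WT under NAE and 36.9, 35.3 and 32.7 CPM in WT under DMSO. Under NAE all agb1 libraries were above those of WT, and under DMSO all were below. It fell in both genotypes, and the difference was 2.47 (SE 0.50, adjusted p = 0.0226), which was lost in 3 of 23 alternatives. GASA6 (AT1G74670), a gibberellin-regulated peptide gene, had 2.02, 2.46 and 1.55 CPM in agb1 under NAE and 10.1, 3.55 and 11.5 CPM in agb1 under DMSO, against 0.572, 1.48 and 0.73 CPM in WT under NAE and 18.23, 21.9 and 21.3 CPM in WT under DMSO. It had the same order of groups, with a narrow gap under NAE. Its difference of 2.45 (SE 0.59, adjusted p = 0.0439) was lost in 13 of 22 alternatives, and agb1 DMSO replicate 2 stood well below the other replicates of its group. The locus overlaps another on the opposite strand.

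Hormone and metabolism lists held at most 2 calls each. Over all loci tested 2.97% were called, 1.32% higher and 1.65% lower. In the jasmonate list 2 of 26 were called, both with a higher effect in agb1 and both vegetative storage protein genes that respond to jasmonate. VSP1 (AT5G24780) had 34.2, 27.1 and 24.4 CPM in agb1 under NAE and 3.57, 3.33 and 2.85 CPM in agb1 under DMSO, against 27.7, 14.8 and 30.1 CPM in WT under NAE and 7.13, 7.26 and 8.63 CPM in WT under DMSO. The genotypes overlapped under NAE, agb1 was below WT under DMSO, and the difference was 1.47 (SE 0.32, adjusted p = 0.0275). VSP2 (AT5G24770) had a difference of 1.71 (SE 0.39, adjusted p = 0.0331). Neither was called without agb1 NAE replicate 1, agb1 NAE replicate 2, WT DMSO replicate 2 or WT DMSO replicate 3. No JAZ repressor gene and no gene of jasmonate synthesis in the list was called. EBF2 (AT5G25350), an F-box gene that turns over the ethylene factor EIN3, was the 1 called of 19 ethylene loci. It had 143, 123.2 and 139.6 CPM in agb1 under NAE and 114, 118 and 128 CPM in agb1 under DMSO, against 149, 117 and 129 CPM in WT under NAE and 50.4, 36.1 and 40.7 CPM in WT under DMSO. The 3 WT libraries under DMSO lay below the other 9, and the difference was -1.46 (SE 0.18, adjusted p = 0.0018). This locus overlaps another on the opposite strand.

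With 2.97% of all loci called, a list with 1 call is not read here as a result about its genes. The auxin list had 1 of 18 called, the amido synthetase gene GH3.1 (AT2G14960), at -2.28 (SE 0.54). The abscisic acid list had 1 of 26, the dehydrin gene RAB18 (AT5G66400), at -4.27 (SE 1.05) with 0.144, 0.343 and 0.0258 CPM in agb1 under NAE, against 3.24, 3.73 and 1.12 CPM in WT under NAE. The sugar starvation list had 2 of 18, the trehalose phosphate synthase family genes TPS8 (AT1G70290) at -1.32 (SE 0.30) and TPS10 (AT1G60140) at -1.01 (SE 0.24). With 1 library left out the lower calls of that list ran from 0, as without agb1 NAE replicate 1, to 4, without agb1 DMSO replicate 2. The flavonoid list had 1 of 17, the flavonol glycosyltransferase gene UGT78D1 (AT1G30530), at 1.48 (SE 0.32), and the cell cycle list had 1 of 23, the mitotic kinase gene CDKB1;1 (AT3G54180), at 0.99 (SE 0.25). In the cell cycle list 19 of 23 values were positive, the median was 0.52, and 7 loci were called without agb1 DMSO replicate 2. The single calls of the auxin, abscisic acid, flavonoid and cell cycle lists were all lost without agb1 NAE replicate 1. The auxin call was also lost with no low-count filter, with voom and with a replicate block. The abscisic acid call was also lost with RLE scaling, with no low-count filter, with voom and with an exon length offset. Both were lost without several other single libraries too. No locus was called in the lists of NAE and oxylipin metabolism (16 tested, median -0.04), clock (16, median -0.01), glucosinolates (17, median 0.39), nitrate and ammonium (8, median -0.13) or seed reserves (7, median -0.01). Loci named in these 2 paragraphs, as in the accounts of lists above, were named as the called members of their list, after their values were seen.

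**Figure D3:**
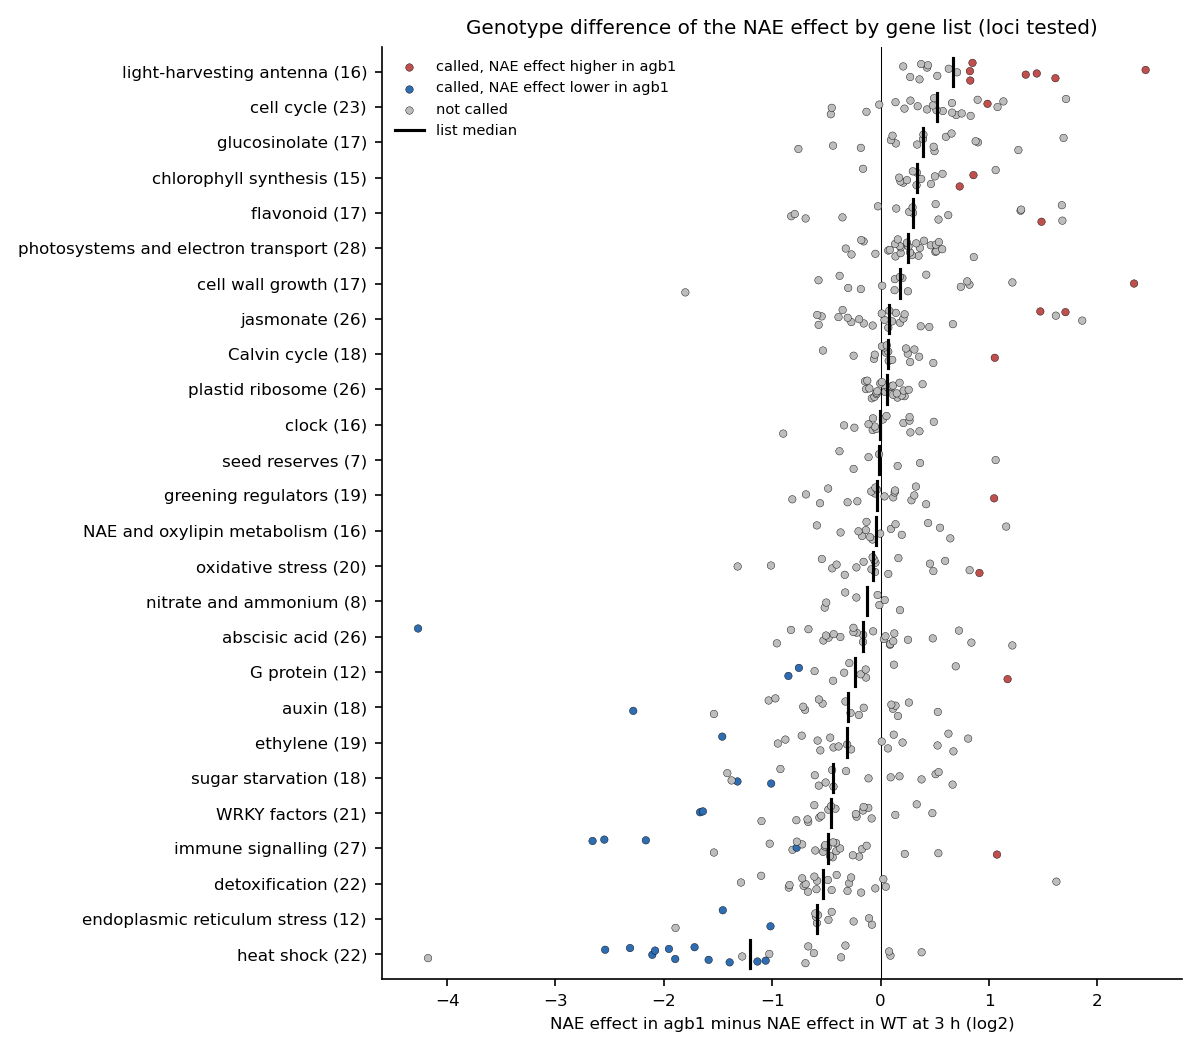
The difference between the NAE effects in agb1 and WT (log2, horizontal) for each tested locus of 26 gene lists, ordered by list median (black bar). Red points are called with a higher effect in agb1 and blue points with a lower one. The heat shock list stands lowest, with a median of -1.21 and 11 called members, and the antenna list highest, with a median of 0.67 and 7.

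The same difference was measured at 1 h in separate libraries. It was called for 16 of 21255 loci (0.0753%), all negative, with 1937 at an unadjusted p under 0.05. In the 1 h set, replicate 2 of WT under DMSO stood apart, with 18001981 counts and 5.33% ribosomal RNA, and without it 4 loci were called. Of the 341 loci with a called negative difference at 3 h, 340 were tested at 1 h, where 56.5% had a negative value and 2 were called. Of the 272 with a positive difference, 57.4% had a positive value at 1 h and 1 was called, with a negative value. Over all loci tested at both times, 49.6% were negative at 1 h. Narrower sets did not show the same share on the negative side. Of the loci at least 2-fold lower at 3 h, 50.3% were negative at 1 h, and of those at least 2-fold higher, 55.9% were positive. Among loci called in each of the 12 fits that leave out 1 library, 44.9% of the 78 lower were negative at 1 h and 60% of the 80 higher were positive.

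Whether the difference itself changed with time was tested in all 24 libraries. It was called for 298 of 21700 loci (1.37%), 119 with a higher (0.548%) and 179 with a lower (0.825%) difference at 3 h than at 1 h. The split depends on scaling, since library totals alone gave 216 higher and 101 lower. In the heat shock list 8 of 22 had a lower difference at 3 h than at 1 h and none a higher one, and the list's median difference was 0.15 at 1 h. AT1G07400 had a difference of -2.74 at 3 h and 0.66 at 1 h (SE 0.34), and the change was -3.41 (SE 0.46, adjusted p = 0.00126). For HSP17.6A the values were -2.54 at 3 h and 0.82 at 1 h, with a change of -3.38 (SE 0.60, adjusted p = 0.00833). For AT5G04380 the change was -3.29 (SE 0.55, adjusted p = 0.00536).

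The largest positive changes were in AT1G60590, HPL1 and PPCK1. They were 5.34 (SE 1.23, adjusted p = 0.0384) for AT1G60590, 3.28 (SE 0.49, adjusted p = 0.00198) for HPL1 and 3.19 (SE 0.60, adjusted p = 0.0107) for PPCK1. The change of AT1G60590 was called in 15 of 31 alternatives, and those of HPL1 and PPCK1 in all 31. PPCK1 had a difference of -1.63 at 1 h (SE 0.59), where it rose in WT, by 2.11 (adjusted p = 0.00815). GPA1 and NDL3 also differed between the times, by -0.94 (SE 0.19, adjusted p = 0.0156) and 1.18 (SE 0.23, adjusted p = 0.0124). For the antenna no locus was called between the times, with a list median of 0.24 at 1 h. PROPEP3 at -1.71 had an adjusted p of 0.215, and its 1 h value of -0.85 had the same sign as that at 3 h.

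**Figure D4:**
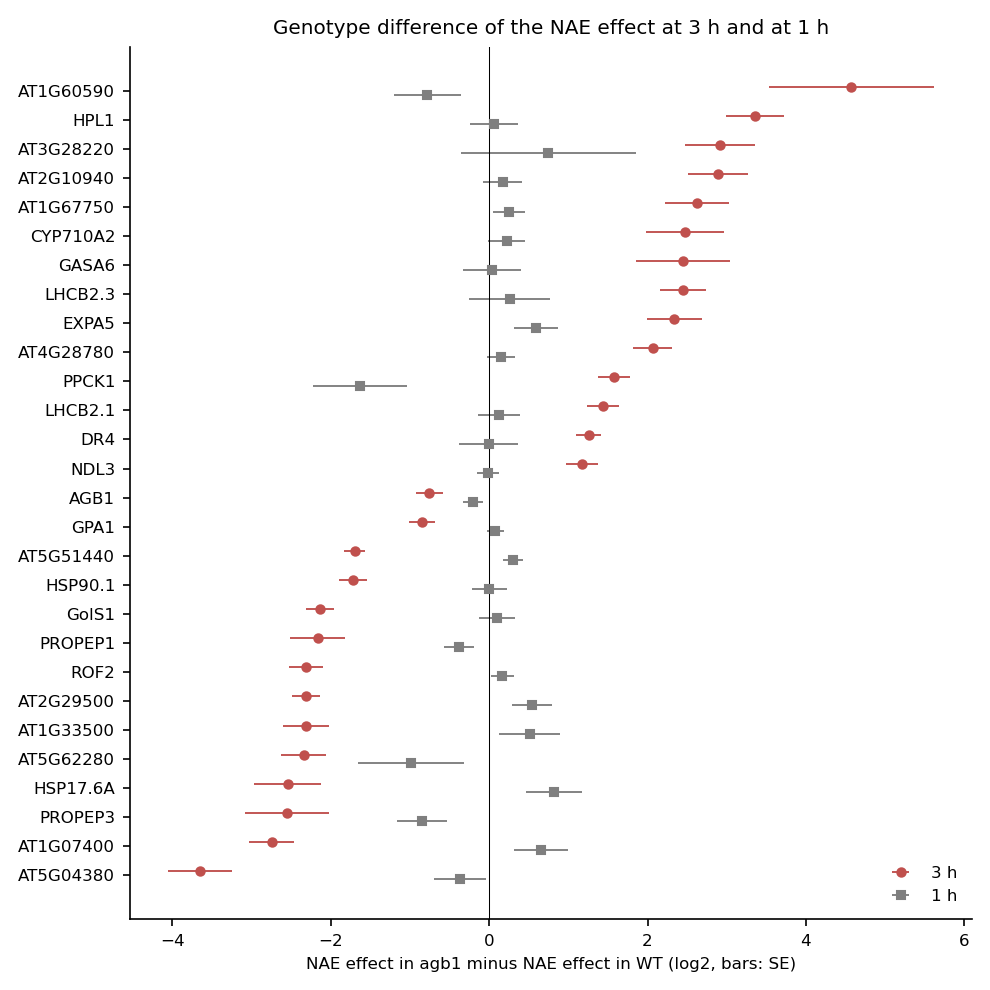
The difference between the NAE effects in agb1 and WT (log2, horizontal, bars are SE) at 3 h (red circles) and at 1 h (grey squares) for the 28 named loci called at 3 h. The 3 h values run from -3.65 to 4.57, while the 1 h values of all 28 lie between -1.63 and 0.82. Most of these loci were named by their 3 h values, so a wider range at 3 h follows in part from the choice. The change between times was not called for some of them, such as PROPEP3, EXPA5 and LHCB2.1.

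How many loci were called depended on single libraries. The count of 613 was 189 without agb1 NAE replicate 1, 199 without agb1 NAE replicate 2, 198 without WT DMSO replicate 2, 335 without WT NAE replicate 2, 396 without WT NAE replicate 1 and 1394 without agb1 DMSO replicate 2. Of the 613 loci, 158 (0.764% of those tested) were called in each of the 12 fits that leave out 1 library, 80 higher and 78 lower. Among the 28 named loci that were called, 22 were in this set. The 6 that were not are AT1G60590, CYP710A2, GASA6, PROPEP3, GPA1 and AGB1.

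**Figure D5:**
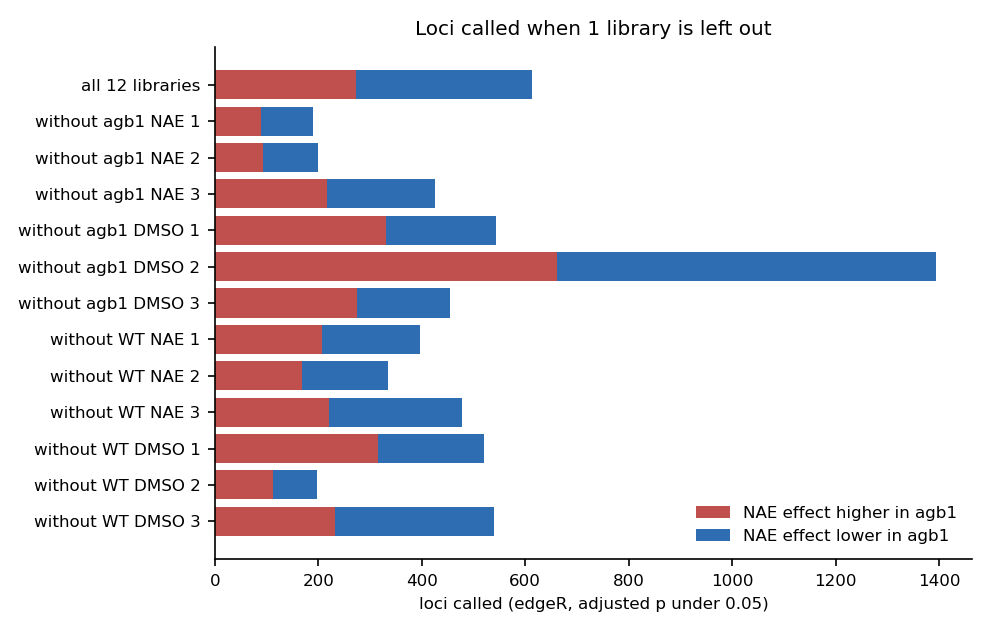
Number of loci with a called genotype difference of the NAE effect at 3 h (horizontal) in all 12 libraries and with each library left out in turn, split into a higher (red) and a lower (blue) effect in agb1. The bar without agb1 DMSO replicate 2 reaches 1394, and that without agb1 NAE replicate 1 reaches 189.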

How the data were processed

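The authors deposited whole-number read counts per gene locus for 24 libraries, and the 12 of 3 h were used for all results but those on time. Libraries were made with a stranded poly(A) mRNA kit and read in pairs of 75 bp, per the labels' protocols. Reads were aligned with STAR to TAIR10, and DESeq2 was used, per the submitters' processing notes. Versions, the counting tool and its strand setting are not given in the sources used here. The authors' normalized tables were not used, since the raw counts of the same libraries were at hand.

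Counts of 3 h were fitted by group means in edgeR 4.0.16 (R 4.3.3) with TMM scaling, robust quasi-likelihood dispersion and filterByExpr (minimum count 10, minimum total 15). P-values were adjusted by Benjamini-Hochberg over all tested loci, and a locus was called at an adjusted p under 0.05. SE is the size of the log2 difference divided by the square root of F. The change between times came from 1 fit of all 24 libraries, and the 1 h difference from a fit of the 12 libraries of 1 h. The code was tested on simulated counts. Precision follows from depth, 19954891 to 51894994 counts per library, and from 3 replicates per group. No pair of replicates of a group was alike within sampling noise.

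Names, products and overlaps came from RefSeq's TAIR10.1 annotation, which matched 32548 of 32833 loci. Of the rest, 285 are organelle loci, whose identifiers it spells differently. No coordinates are given because the builds differ.

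Named loci were the 8 largest differences in each direction among called loci averaging at least 5 CPM, the 5 smallest p-values in each direction, up to 4 loci called in opposite directions in the 2 genotypes, the 2 smallest p-values of each list with at least 3 calls, 6 G protein genes, and the 3 largest changes between times in each direction. Others are said to be chosen later. The comparison, lists and families were chosen with earlier results of these data known, and identifiers of a few list members were corrected after the files were read.

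Alternatives were size-factor (RLE) scaling, library totals alone, no low-count filter, a mean of at least 1 CPM, DESeq2 1.42.0, voom in limma 3.58.1, thinning to equal depth, a replicate block, an exon length offset, all 24 libraries in the fit, and each library left out. A fit of loci without an opposite-strand neighbour, and a 1 h fit without 1 library, were added after the data were seen.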

Additional observations from a re-analysis of the deposited data

Results flagged for a closer look

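Each result here is a tested difference between groups. The NAE effect was tested for a difference between agb1 and WT at 3 h, and that difference was tested between 3 h and 1 h. Groups of 3 are too small to test whether 1 sample stands far from the others, so no single sample was tested.

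At 3 h the NAE effect differed between agb1 and WT for 613 loci. Among the named loci, the effect was higher in agb1 for the lyase-like genes AT1G60590 at 4.57 and AT1G67750 at 2.62, for EXPA5 at 2.34, AT4G28780 at 2.06 and AT2G10940 at 2.89, all of the cell wall or of lipid transport and cleavage by their annotation. It was higher for the antenna genes LHCB2.3 at 2.45 and LHCB2.1 at 1.44. It was also higher for HPL1 at 3.35, AT3G28220 at 2.91, CYP710A2 at 2.47, GASA6 at 2.45, PPCK1 at 1.57, DR4 at 1.26 and NDL3 at 1.17.

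The effect was lower in agb1 for the chaperone genes AT1G07400 at -2.74, HSP17.6A at -2.54, AT2G29500 at -2.31, ROF2 at -2.31, HSP90.1 at -1.72 and AT5G51440 at -1.70, and for GolS1 at -2.14. It was lower for the danger peptide genes PROPEP3 at -2.55 and PROPEP1 at -2.17, and for the G protein genes GPA1 at -0.85 and AGB1 at -0.75. It was also lower for AT5G04380 at -3.65, AT5G62280 at -2.34 and AT1G33500 at -2.31.

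Between 3 h and 1 h the difference itself changed for 298 loci. The changes of named loci were 5.34 for AT1G60590, 3.28 for HPL1 and 3.19 for PPCK1, and -3.41 for AT1G07400, -3.38 for HSP17.6A and -3.29 for AT5G04380.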

How the results depend on the processing

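The 613 calls at 3 h became 1394 with DESeq2 (686 higher, 708 lower, 600 at least 2-fold) and 2222 with all 24 libraries in the fit (963 higher, 1259 lower, 731 at least 2-fold). The 8 other settings tried on all loci gave 501 with voom to 645 after thinning, and the 15417 loci without an opposite-strand neighbour gave 467. With 24 libraries in the fit, agb1 against WT was called for 7172 loci under NAE and 6297 under DMSO. The change between times was called for 898 loci with DESeq2 (390 higher, 508 lower), and library totals alone gave 216 higher and 101 lower. The cause of these changes in count was not tested.

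With 1 library left out, the 3 h count ran from 189 to 1394, with 90 to 661 higher, 86 to 733 lower and 144 to 691 at least 2-fold. Over the same fits agb1 against WT was called for 2812 to 5280 loci under NAE and 2503 to 4374 under DMSO. The change between times ran from 124, without WT NAE 1 h replicate 3, to 979, without agb1 DMSO 3 h replicate 2, with 53 to 431 higher and 71 to 548 lower. The 1 h difference had 4 calls without WT DMSO replicate 2.

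Of 916 values of named loci under the alternatives, none changed sign with a call, 858 stayed on their side of the threshold, 57 lost their call and 1 gained it, RGS1 with 24 libraries.

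Over 18 pairs of libraries with the same replicate number, the correlation of deviations from the group means ran from -0.135 to 0.255 (median -0.0435), and a library correlated best with its own number in 9 of 36 comparisons with another group. The numbers were not taken to pair samples. With the replicate number as a block, 564 loci were called, 493 of them among the 613, and the change between times was called for 203.

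Depth at 3 h differed with genotype, and 3 replicates and near-identical copies limit single values.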

Other observations

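Single loci first named in this section were chosen after their values were seen, from those called in each of the 12 fits that leave out 1 library. Genes linked to the beta-glucosidase defence of Brassicaceae were among them on the positive side. MBP2 (AT1G52030), a myrosinase-binding protein gene, had 37.8, 32.9 and 34.4 CPM in agb1 under NAE and 5.70, 4.12 and 3.52 CPM in agb1 under DMSO, against 40.4, 25.1 and 38.6 CPM in WT under NAE and 15.1, 14.3 and 12.1 CPM in WT under DMSO. The genotypes overlapped under NAE, and agb1 was below WT under DMSO. Its difference was 1.65 (SE 0.27, adjusted p = 0.00651). MBP1 (AT1G52040) had a difference of 1.42 (SE 0.26, adjusted p = 0.0126) and BGLU18 (AT1G52400), a beta-glucosidase of endoplasmic reticulum bodies, had 1.46 (SE 0.22, adjusted p = 0.00493). PEN2 (AT2G44490), an atypical myrosinase of preinvasion defence, lay on the negative side at -0.96 (SE 0.16, adjusted p = 0.00796). ALD1 (AT2G13810), the aminotransferase gene of pipecolic acid synthesis, had 0.952, 1.16 and 1.34 CPM in agb1 under NAE and 3.02, 2.47 and 2.36 CPM in agb1 under DMSO, against 1.76, 2.55 and 2.66 CPM in WT under NAE and 1.201, 1.103 and 0.542 CPM in WT under DMSO. The agb1 libraries lay below WT under NAE and above WT under DMSO. Its difference was -2.46 (SE 0.42, adjusted p = 0.0091).

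Genes of organ growth and epidermal patterning stood on both sides. ARGOS (AT3G59900), an auxin-regulated gene that promotes organ size, had 4.04, 2.98 and 4.15 CPM in agb1 under NAE and 9.04, 9.88 and 6.56 CPM in agb1 under DMSO, against 4.48, 3.85 and 4.77 CPM in WT under NAE and 3.31, 1.18 and 1.70 CPM in WT under DMSO. The genotypes overlapped under NAE, and agb1 was above WT under DMSO. The difference was -2.27 (SE 0.42, adjusted p = 0.0133), and that of its relative ARL (AT2G44080) was -1.74 (SE 0.32, adjusted p = 0.0132). HDG11 (AT1G73360), a homeodomain factor of the epidermis, had 3.35, 3.12 and 2.47 CPM in agb1 under NAE and 3.33, 4.72 and 3.38 CPM in agb1 under DMSO, against 0.905, 0.415 and 0.944 CPM in WT under NAE and 3.53, 5.63 and 4.88 CPM in WT under DMSO. The WT libraries under NAE were the lowest, and the genotypes overlapped under DMSO. Its difference was 2.23 (SE 0.40, adjusted p = 0.0111). BAM2 (AT3G49670), a receptor kinase gene of the CLAVATA1 family, had 1.41 (SE 0.24, adjusted p = 0.00772).

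Further chaperone genes outside the heat shock list had negative values, with Hop3 (AT4G12400), a co-chaperone gene of HSP70 and HSP90, at -1.23 (SE 0.15, adjusted p = 0.00154), HSA32 (AT4G21320), a gene of lasting heat acclimation, at -1.26 (SE 0.18, adjusted p = 0.00402), and Fes1A (AT3G09350), a co-chaperone gene of HSP70, at -1.32 (SE 0.20, adjusted p = 0.00479). Groups matched by product wording were counted in the fit of all 12 libraries. Of 51 aspartyl proteases, 6 had a higher effect in agb1 and 1 a lower one. Of 262 loci matched as protein kinases 1 was higher and 8 lower, and of 226 matched as RING/U-box proteins none was higher and 7 lower. Over all loci 1.32% were called higher and 1.65% lower. The match misses members of these classes. The kinase genes PPCK1 at 1.57, BAM2 at 1.41 and AT5G67280 at 1.34 were called higher, as was WAVH2 (AT5G65683), a RING finger gene, at 1.01. The counts are therefore not read as a direction of all kinases or RING proteins.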
